A study of Homo sapiens with 6 samples.

Results

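ZNF7 is a zinc finger gene near the end of the long arm of human chromosome 8, where it stands among other zinc finger genes and overlaps COMMD5. The 9 genes described here, of 37202 in the deposited table, are ZNF7, COMMD5 and the zinc finger genes ZNF16, ZNF34, ZNF250, ZNF251, ZNF517, ZNF623 and ZNF707. ZNF7 was chosen by the difference in its estimated counts between NR3C2-OE and Control, so its values in that contrast are a description and carry no test. COMMD5 was chosen for its overlap with ZNF7, and the other zinc finger genes for their family and their place at this end of the chromosome. In GENCODE 29 the coding genes run, toward the end of the arm, from ZNF251 through ZNF34, RPL8, ZNF517, ZNF7, COMMD5 and ZNF250 to ZNF16, while ZNF623 and ZNF707 lie side by side farther in. Symbols were matched to the Ensembl identifiers of the table, and all 9 genes passed the filter on low counts.

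The cells were HK2, an immortalized epithelial line of the human proximal tubule, grown with serum. In the 3 NR3C2-OE libraries the cells had been transfected, with Lipofectamine 2000, with a plasmid carrying NR3C2, the gene of the mineralocorticoid receptor, and the 3 Control libraries carry the genotype label normal. What the Control cells received, the time after transfection and any receptor ligand are not given in the labels, nor is it said whether the numbered libraries came from separate cultures, so the p-values measure only a spread between libraries that may be technical. RNA was sequenced in pairs from strand-specific libraries.

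Zinc finger proteins of this family bind DNA through repeated C2H2 fingers, in which cysteines and histidines hold a zinc ion. Many carry a KRAB box, which recruits the corepressor TRIM28 and, through it, enzymes that lay down repressive chromatin, and their genes lie in clusters that arose by duplication. COMMD5 is of another family. It encodes a COMM domain protein that takes part in the retrieval of membrane proteins from endosomes, and it is also known as HCaRG, a gene first described in genetically hypertensive rats and studied for its part in the growth and repair of the proximal tubule.

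The libraries held 77737375 to 90395149 estimated counts in NR3C2-OE and 91956680 to 132533971 in Control. NR3C2 had 12.1, 6.95 and 7.41 FPKM (fragments scaled to transcript length and library size) in NR3C2-OE libraries 1, 2 and 3 and 5.97, 6.26 and 5.16 FPKM in Control libraries 1, 2 and 3, so the groups did not overlap, although the edgeR quasi-likelihood test gave an adjusted p of 0.486. Of 17 proximal tubule and epithelial markers, 15 were in the table and 10 reached a mean of 1 FPKM. The keratin KRT8 had 198 FPKM in NR3C2-OE and 199 FPKM in Control. The renal transcription factor PAX8 had 150 FPKM in NR3C2-OE and 133 FPKM in Control. Others were nearly absent, with CDH1 at 0.120 FPKM in NR3C2-OE and 0.114 FPKM in Control and PAX2 at 0.0846 and 0.109 FPKM. The cadherin CDH2 had 32.6 FPKM in NR3C2-OE and 34.4 FPKM in Control. Among markers of the mature proximal tubule, the water channel AQP1 was listed at 0 in all NR3C2-OE libraries and averaged 0.0395 FPKM in Control, and the endocytic receptor CUBN averaged 0.0152 FPKM in NR3C2-OE and 0.0137 FPKM in Control. The brush border enzyme GGT1 was present, at 53.9 ± 2.82 FPKM in NR3C2-OE and 26.4 ± 16.5 FPKM in Control (SD, n = 3 each), where library 3 stood apart at 45.5 FPKM and libraries 1 and 2 had 16.3 and 17.5 FPKM. Of the 18 markers of other cell types, 12 were in the table and 2 reached a mean of 1 FPKM. These were CD68, a lysosomal protein that is also a macrophage marker (27.1 FPKM in NR3C2-OE and 20.9 FPKM in Control), and the collagen COL1A1 (6.89 FPKM in NR3C2-OE and 7.48 FPKM in Control). The macrophage and endothelial markers LYZ and PECAM1 had 0.0981 and 0.0115 FPKM in NR3C2-OE and 0.0783 and 0.0176 FPKM in Control. Of 6 such markers tested, edgeR called 0 and DESeq2 called 1, CD68, which was higher in all NR3C2-OE libraries (DESeq2 adjusted p = 0.0387). Of all tested genes, DESeq2 called 1.52%, and 7.96% were higher in all NR3C2-OE libraries in CPM. For 2 of the 6 (33.3%, against 9.19% of all tested genes) the unadjusted p was below 0.05, CD68 higher and the endothelial cadherin CDH5 lower. The summed FPKM of the 12 ran from 31.3 to 38.3 in NR3C2-OE and from 28.5 to 30.3 in Control. The part of these differences in the results below was not tested.

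ZNF7 was lower in all 3 NR3C2-OE libraries than in the lowest Control library. Its FPKM was 3.14, 3.53 and 3.44 in NR3C2-OE libraries 1, 2 and 3, against 6.58, 6.26 and 5.33 in Control libraries 1, 2 and 3. The means were 3.37 ± 0.20 FPKM in NR3C2-OE and 6.06 ± 0.65 FPKM in Control (SD, n = 3 each), which puts NR3C2-OE at 55.6% of Control. The groups did not overlap, and the NR3C2-OE libraries spanned a narrower range than the Control libraries. NR3C2-OE library 1, which had the highest NR3C2, had the lowest ZNF7, and NR3C2-OE libraries 2 and 3 differed little in either gene. Within Control the order ran the other way, with library 3 lowest in NR3C2 (5.16 FPKM) and in ZNF7. A relation between these genes was not tested. In bulk RNA, fewer cells with a transcript and less of it per cell cannot be told apart.

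The estimated counts of ZNF7 differed more than its FPKM. They were 612, 696 and 734 in NR3C2-OE libraries 1, 2 and 3, against 2356, 2368 and 2958 in Control libraries 1, 2 and 3. Scaled to library size with TMM factors, as CPM, they came to 8.19 ± 0.58 in NR3C2-OE and 24.5 ± 1.74 in Control (SD, n = 3 each). On the log2 scale the counts differed by -1.58 (SE 0.092), with NR3C2-OE at 33.4% of Control. On the log2(FPKM + 1) scale the difference was -0.69 (SE 0.091), and a pseudocount of 0.1 in place of 1 gave -0.82. ZNF7 was thus lower by either measure, and by a clearly larger amount in counts. Leaving out any 1 library kept the log2 fold change of the counts between -1.64 and -1.54. All NR3C2-OE libraries lay below all Control libraries for 8.75% of tested genes in CPM and for 6.65% in FPKM, and since this contrast chose ZNF7, nothing is read from these shares.

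**Figure D1:**
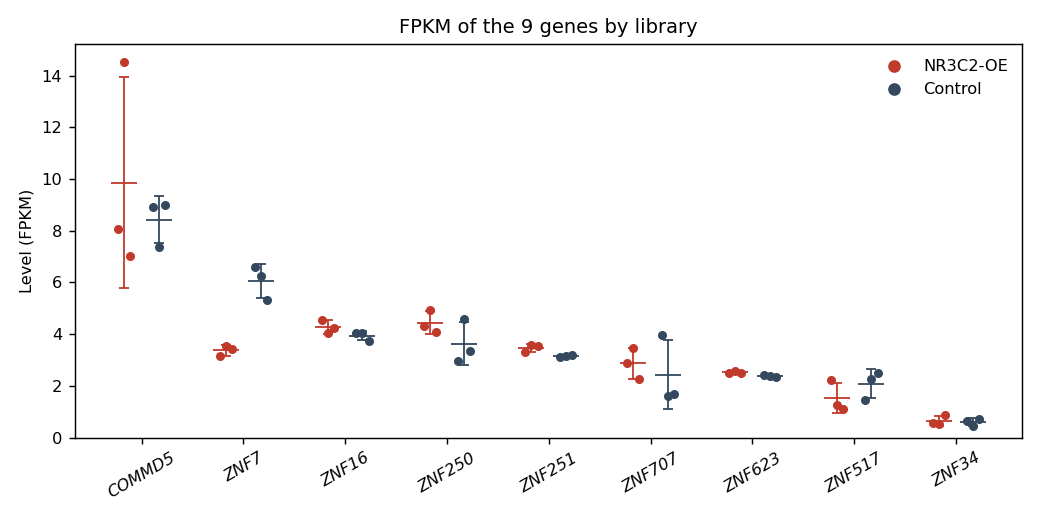
FPKM of the 9 genes (vertical axis) in each NR3C2-OE library (red, left of each pair) and each Control library (dark, right), with the group mean as a horizontal line and the SD as a bar (n = 3 each). ZNF7 lies between 3.14 and 3.53 FPKM in NR3C2-OE and between 5.33 and 6.58 FPKM in Control, while most other genes overlap between the groups.

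Dividing a gene's counts by its FPKM and by the library total gives a length, the apparent mean length of the transcripts to which the counts were assigned. Among 683 genes with a single transcript of at least 1000 bases in GENCODE 29 and at least 1 FPKM in every library, this length exceeded the annotated one by a nearly constant factor, with medians of 1.193 to 1.201 in the 6 libraries. Each library was divided by its own median. The annotation behind the deposited values is not named and may differ from GENCODE 29.

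By this measure ZNF7 had a smaller apparent length in NR3C2-OE. Its apparent length was 2038, 2124 and 1978 bases in NR3C2-OE libraries 1, 2 and 3, against 3246, 3359 and 3484 bases in Control libraries 1, 2 and 3. The means were 2047 ± 73.2 bases in NR3C2-OE and 3363 ± 119 bases in Control (SD, n = 3 each), a log2 change of -0.72. GENCODE 29 lists 18 transcripts of ZNF7. The longest has 5641 bases and retains an intron, and the next has 2905 bases and is protein-coding, so the mean in Control lies above every annotated coding transcript and the mean in NR3C2-OE below the longest of them. Other long coding transcripts of ZNF7 have 2242, 2125 and 1874 bases.

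Such a change in length was rare across the table. Of 13720 genes with a mean of at least 1 FPKM and values above 0 in all libraries, 16 (0.117%) had a change as low as that of ZNF7 and 35 (0.255%) one as large in either direction, while the median was 0.00034 and the 5th and 95th percentiles were -0.14 and 0.15. These shares describe ZNF7, which was chosen by its counts, and are no test. The table holds no values of single transcripts, so which of them differed was not measured.

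For most other genes of the group the apparent lengths overlapped. COMMD5 had 1418 ± 16.3 bases in NR3C2-OE and 1409 ± 20.2 in Control, ZNF251 had 2814 ± 42.4 in NR3C2-OE and 2801 ± 25.6 in Control, and ZNF16 had 2265 ± 53.6 in NR3C2-OE and 2296 ± 48.1 in Control (SD, n = 3 each). For ZNF623 the length was lower in every NR3C2-OE library, by a small amount, with 4394 ± 16.4 bases in NR3C2-OE and 4525 ± 112 in Control (log2 change -0.04). This change lay between the 5th and 95th percentiles over the table, -0.14 and 0.15. How many of all genes had lengths without overlap was not counted. For ZNF34 the means were above its longest annotated transcript (2056 bases) in both groups, at 2324 ± 141 bases in NR3C2-OE and 2606 ± 296 in Control. ZNF250 was the most variable, with 4353 ± 813 bases in NR3C2-OE and 4224 ± 487 in Control.

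**Figure D2:**
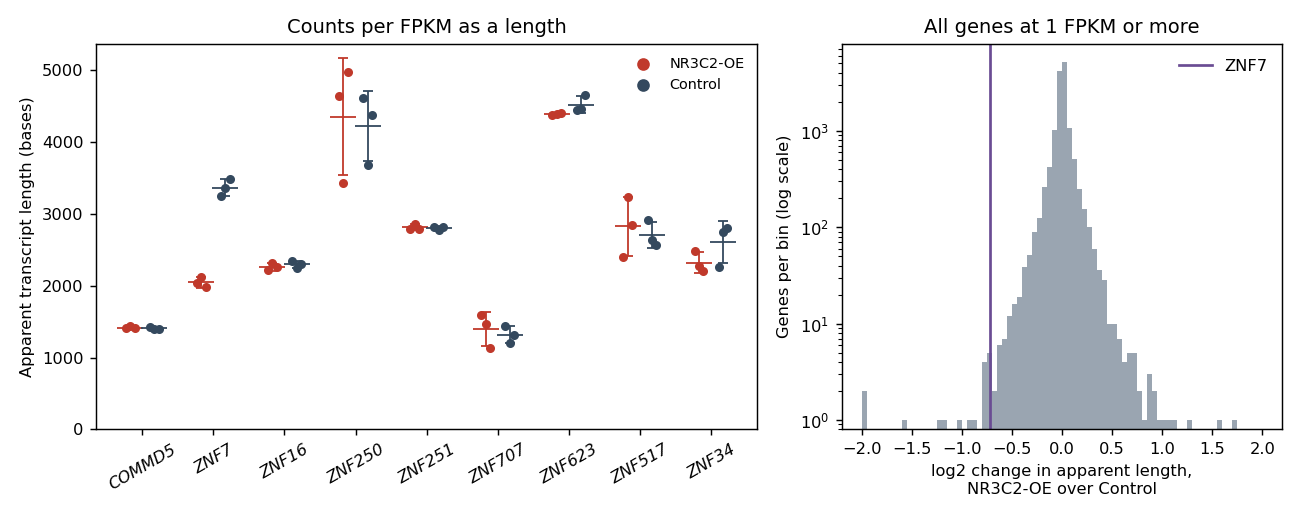
Left, the apparent transcript length in bases (counts per FPKM and library total, divided by the library's median for genes with a single transcript) of the 9 genes in NR3C2-OE (red) and Control (dark) libraries, with mean and SD (n = 3 each). Right, the log2 change of this length for 13720 genes (count axis on a log scale, changes beyond 2 placed in the end bins), with ZNF7 marked at -0.72.

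COMMD5, which overlaps ZNF7, had levels that overlapped between the groups. Its FPKM was 8.07, 14.5 and 7.003 in NR3C2-OE libraries 1, 2 and 3, against 8.93, 7.37 and 8.98 in Control libraries 1, 2 and 3. NR3C2-OE library 2 stood above all others, and the other NR3C2-OE libraries lay within or just below the Control range. In counts the log2 fold change was 0.22 (SE 0.28, 95% interval -0.57 to 1.00, edgeR adjusted p = 0.873), and without NR3C2-OE library 2 it was -0.18 (SE 0.14, edgeR adjusted p = 0.7996). The interval includes changes in both directions.

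In GENCODE 29 the genes lie on opposite strands, with ZNF7 on the plus strand and COMMD5 on the minus strand. Of the 7 COMMD5 transcripts, 1 reaches into ZNF7, and it shares 389 exon bases with that gene. These are 3.78% of the 10296 exon bases of all ZNF7 transcripts together, a total that includes retained introns. Of the 18 ZNF7 transcripts, 13 hold shared bases, so the share in a single transcript can be larger. The libraries were strand-specific, but no source used here says whether the counting used the strand, so reads from the shared bases may have been assigned to either gene. The counts of both genes added came to 24.8 ± 7.48 CPM in NR3C2-OE and 38.8 ± 1.87 CPM in Control (SD, n = 3 each). The groups did not overlap for this sum, with 33.4 CPM in the highest NR3C2-OE library and 37.7 CPM in the lowest Control library. The sum holds the counts by which ZNF7 was chosen, so it is a description and carries no test.

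ZNF7 made up 36.0%, 26.4% and 40.8% of the pair's counts in NR3C2-OE libraries 1, 2 and 3, and 62.6%, 67.2% and 59.6% in Control libraries 1, 2 and 3. In counts, which are not scaled to length, COMMD5 thus held the larger share in every NR3C2-OE library and ZNF7 in every Control library. In FPKM, COMMD5 held the larger share in all 6 libraries, with ZNF7 at 28.0%, 19.6% and 32.9% of the pair in NR3C2-OE libraries 1, 2 and 3 and at 42.4%, 46.0% and 37.3% in Control libraries 1, 2 and 3. The groups did not overlap in this share either. ZNF7 enters both shares and was chosen by this contrast, so nothing is read from their separation. Fitted as 1 gene, the added counts had a log2 fold change of -0.65 (SE 0.20), or of -0.92 without NR3C2-OE library 2. With FPKM added in place of counts, the sums overlapped, at 13.2 ± 4.19 FPKM in NR3C2-OE and 14.5 ± 0.95 FPKM in Control (SD, n = 3 each).

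**Figure D3:**
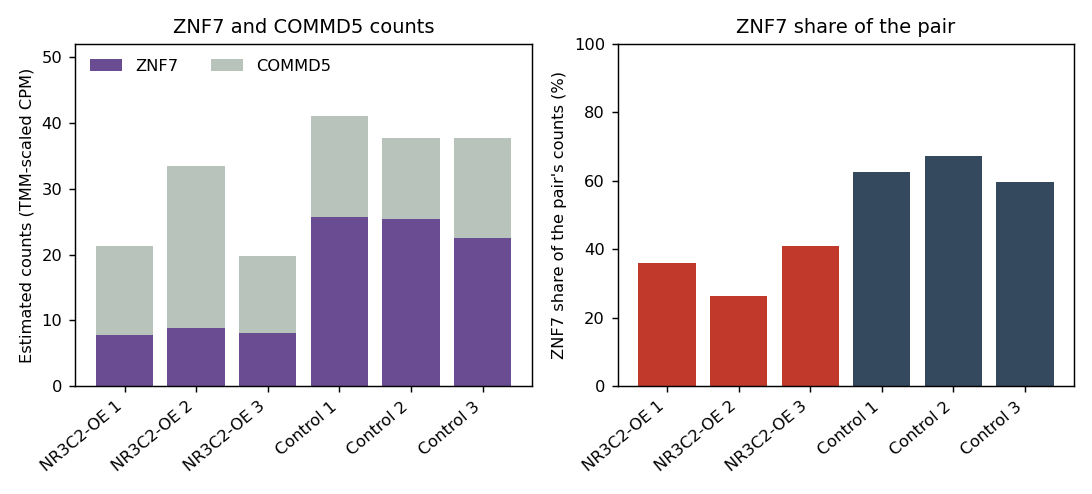
Left, TMM-scaled estimated counts (CPM) of ZNF7 (purple) and COMMD5 (grey) stacked for each library. Right, the share of ZNF7 in the counts of the pair in percent, with NR3C2-OE in red and Control in dark, at most 40.8% in NR3C2-OE and at least 59.6% in Control.

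None of the other 8 genes passed between NR3C2-OE and Control in edgeR's quasi-likelihood test with Benjamini-Hochberg adjustment over all 21509 tested genes. Of all tested genes, 6 (0.0279%) passed. For 1 of the 8 the unadjusted p was below 0.05, where 9.19% of all tested genes were, and DESeq2 called 0 of the 8, with 1.52% of all genes called. The log2 fold changes of the 8 ran from -0.43 to 0.32, with a median of 0.10 against 0.00071 over all tested genes. Of the 8, 6 were positive, as were 10797 of the 21509 tested genes. The lowest adjusted p was 0.498.

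The immediate neighbours of the pair on either side are ZNF517 and ZNF250. ZNF250 had the lowest p of the 8, and its FPKM was 4.32, 4.93 and 4.09 in NR3C2-OE libraries 1, 2 and 3, against 2.96, 4.57 and 3.36 in Control libraries 1, 2 and 3. The groups overlapped through Control library 2. Its log2 fold change was 0.32 (SE 0.12, 95% interval 0.00075 to 0.64, edgeR adjusted p = 0.498).

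ZNF517 leaned the other way. It had 2.21, 1.26 and 1.12 FPKM in NR3C2-OE libraries 1, 2 and 3, against 1.45, 2.29 and 2.50 in Control libraries 1, 2 and 3. NR3C2-OE library 1 and Control library 1 crossed into the range of the other group. Its log2 fold change of -0.43 (SE 0.24, 95% interval -1.10 to 0.24) did not pass (edgeR adjusted p = 0.657). With 1 library left out it ranged from -0.65 (without NR3C2-OE library 1) to -0.27 (without NR3C2-OE library 3).

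ZNF251 and ZNF623 had all NR3C2-OE libraries above all Control libraries, in CPM and in FPKM, by small amounts. The same held for 7.96% of all tested genes in CPM and for 9.38% in FPKM. ZNF251 had 3.29, 3.59 and 3.55 FPKM in NR3C2-OE libraries 1, 2 and 3 and 3.12, 3.17 and 3.19 FPKM in Control libraries 1, 2 and 3 (log2 fold change of the counts 0.12, SE 0.075, edgeR adjusted p = 0.679). ZNF623 varied little, with 2.52 ± 0.029 FPKM in NR3C2-OE and 2.38 ± 0.048 FPKM in Control (SD, n = 3 each). Its log2 fold change of 0.02 had a 95% interval of -0.16 to 0.20.

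ZNF16, studied in human leukaemia cells for its part in erythroid and megakaryocytic differentiation, had 4.28 ± 0.26 FPKM in NR3C2-OE and 3.95 ± 0.17 FPKM in Control (SD, n = 3 each). The groups overlapped, and the log2 fold change of the counts was 0.08 (95% interval -0.14 to 0.29).

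Of the 8 genes other than ZNF7, ZNF707 had the highest standard error in counts (0.47). That of ZNF34 was 0.27, close to the 0.28 of COMMD5. ZNF34 had the lowest level of the group, at 0.65 ± 0.20 FPKM in NR3C2-OE and 0.59 ± 0.15 FPKM in Control (SD, n = 3 each), from 110 to 208 estimated counts in NR3C2-OE and 134 to 324 in Control. Its log2 fold change was -0.08 in counts (95% interval -0.84 to 0.68) and 0.04 on the log2(FPKM + 1) scale. ZNF707 had 2.90, 3.46 and 2.26 FPKM in NR3C2-OE libraries 1, 2 and 3, against 3.97, 1.62 and 1.69 in Control libraries 1, 2 and 3, so Control library 1 stood above every other library. Its log2 fold change was 0.29 (SE 0.47, edgeR adjusted p = 0.901), and 0.94 (SE 0.32, edgeR adjusted p = 0.679) without Control library 1. It was 0.03 without Control library 2, 0.08 without Control library 3, and 0.19, 0.11 and 0.54 without NR3C2-OE libraries 1, 2 and 3. In GENCODE 29 the gene RN7SL395P overlaps ZNF34 on the other strand, and BREA2 (same strand), CCDC166 and a long non-coding gene (both on the other strand) overlap ZNF707.

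**Figure D4:**
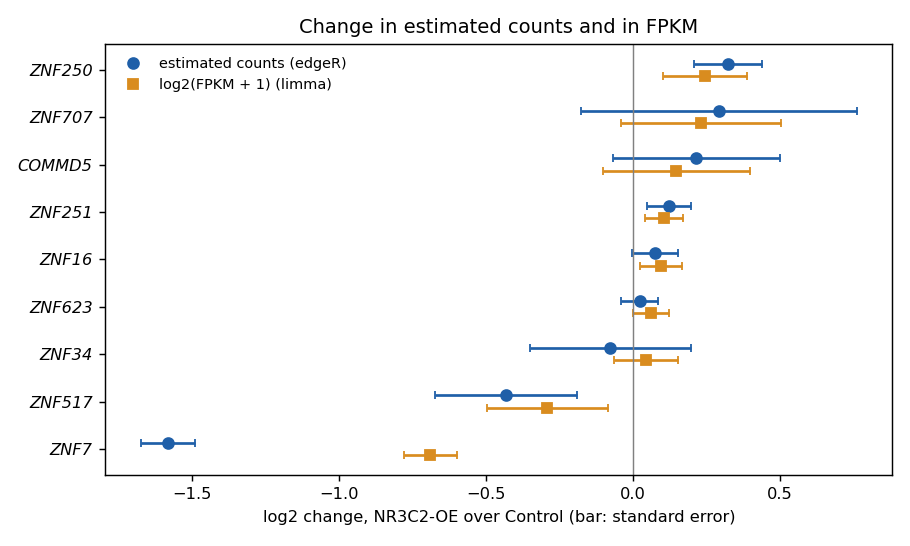
The log2 change of NR3C2-OE over Control (horizontal axis) in estimated counts (blue circles, edgeR) and in log2(FPKM + 1) (orange squares, limma), with standard errors, for the 9 genes. The estimates lie close together for 8 genes and apart for ZNF7, at -1.58 and -0.69, and those of ZNF34 lie on either side of 0.

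FPKM is scaled to length, so the levels of the genes could be set side by side. In NR3C2-OE the order was COMMD5, ZNF250, ZNF16, ZNF251, ZNF7, ZNF707, ZNF623, ZNF517 and ZNF34. The libraries of ZNF250 and ZNF16 overlapped, as did those of ZNF251 and ZNF7, of ZNF7 and ZNF707, and of ZNF707 and ZNF623, while the other neighbours in the order were apart. In Control the order was COMMD5, ZNF7, ZNF16, ZNF250, ZNF251, ZNF707, ZNF623, ZNF517 and ZNF34. COMMD5, ZNF7 and ZNF16 were apart from each other, ZNF34 was apart below ZNF517, and each gene from ZNF16 to ZNF517 overlapped with the next. ZNF7 was therefore in the 5th place in NR3C2-OE and in the 2nd in Control. Among 442 other tested genes named ZNF and a number, 57.7% in NR3C2-OE and 82.4% in Control had a mean FPKM below that of ZNF7, with medians of 2.70 FPKM in NR3C2-OE and 2.58 FPKM in Control. The places and shares of ZNF7 restate the contrast that chose it, so nothing is read from their difference between the groups.

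The deposited table annotates the zinc finger genes alike, which restates their choice by family. It gives all 8 the same KEGG orthology entry, K09228, and 1 Pfam domain each. This is the KRAB box for ZNF250 and ZNF707 and a zinc-finger double domain for the other 6, and for COMMD5 it is the COMM domain. With 1 domain listed per gene, these entries do not show whether the other 6, ZNF7 among them, carry a KRAB box. The longest protein-coding transcripts in GENCODE 29 had a GC content from 43.5% (ZNF623) to 64.3% (ZNF517), with 50.2% for ZNF7. Windows of 50 bases of these transcripts were looked up in the transcripts of all other genes, on either strand. ZNF16, ZNF34, ZNF251 and ZNF517 had 0 shared windows, and ZNF707, ZNF623 and ZNF250 had 0.320%, 1.09% and 1.14%. ZNF7 shared 12.9% of its windows, 343 of 369 of them with COMMD5. At this length no zinc finger gene of the group shared a window with another of the group.

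No listed gene around the cluster had a log2 fold change as low as that of ZNF7. This contrast chose ZNF7, so its place below them is a description and nothing is read from it. Of 49 genes without zinc fingers listed for the end of chromosome 8, 44 were tested and 0 were called in edgeR's test over all genes. For 8 of these (18.2%, against 9.19% of all tested genes) the unadjusted p was below 0.05, 5 higher and 3 lower. Of all tested genes edgeR called 0.0279% and DESeq2 1.52%, and of these 44 DESeq2 called 1, EPPK1 (DESeq2 adjusted p = 0.0345). Their median log2 fold change was 0.08 and their range -0.40 to 0.73. The genes with the smallest p were EPPK1, which encodes the cytoskeletal linker epiplakin (log2 fold change -0.40, edgeR adjusted p = 0.343), the RNA exosome subunit EXOSC4 (0.39, edgeR adjusted p = 0.462) and MAF1, a repressor of RNA polymerase III (0.12, edgeR adjusted p = 0.503). RPL8, a ribosomal protein gene that lies between ZNF34 and ZNF517, had a log2 fold change of -0.16 (SE 0.17), and C8orf33, beyond ZNF16, one of 0.01 (SE 0.094).

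**Figure D5:**
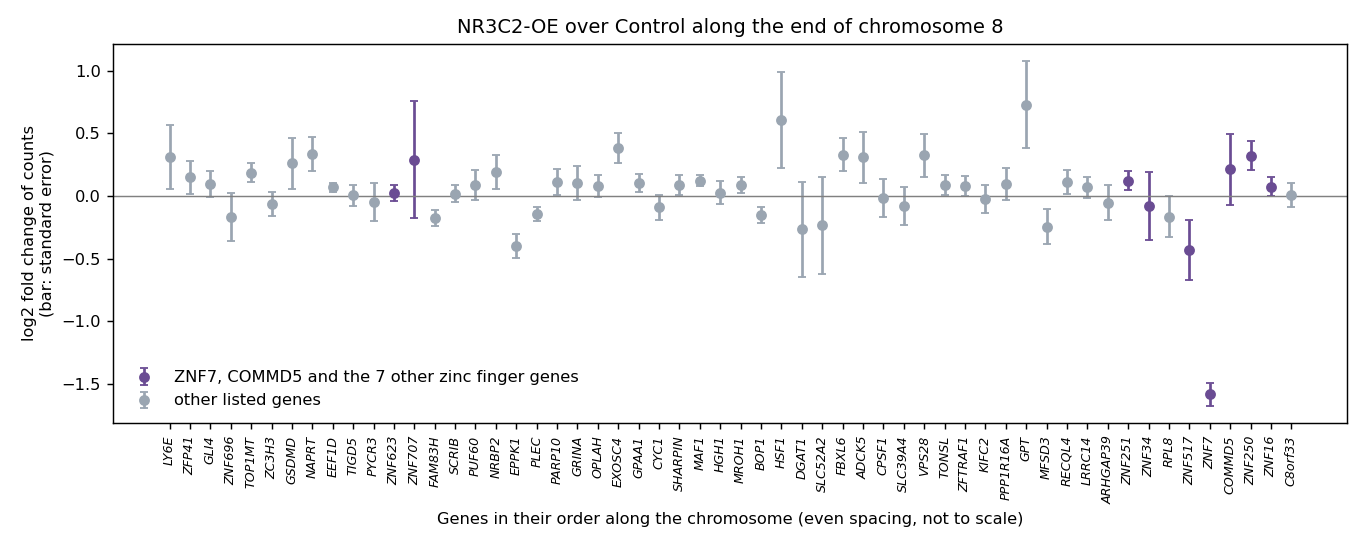
The log2 fold change of the estimated counts, NR3C2-OE over Control, with standard errors, for 56 tested genes in their order along the end of chromosome 8 (even spacing, not to scale). The 9 genes are in purple and other listed genes in grey, and ZNF7 lies at -1.58 between ZNF517 at -0.43 and COMMD5 at 0.22.

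Other zinc finger genes did not pass in edgeR's test either, which 0.0279% of all tested genes passed. Of 12 further zinc finger genes of the long arm of chromosome 8, 11 were tested and 0 were called, by edgeR or by DESeq2. For 1 of the 11 (9.09%, against 9.19% of all tested genes) the unadjusted p was below 0.05. The median log2 fold change was 0.02. At the head of the list by p stood the GATA-type repressor TRPS1 (log2 fold change 0.39, SE 0.14), the GATA cofactor ZFPM2 (-0.17, SE 0.11) and ZFAT (0.08, SE 0.063). In FPKM, ZFPM2 had 1.11 ± 0.14 in NR3C2-OE and 1.74 ± 0.042 in Control (SD, n = 3 each), a larger difference than in counts. Of the 442 other genes named ZNF and a number, 273 leaned higher and 169 lower, and the median log2 fold change was 0.05. Over all tested genes 10797 leaned higher and 10712 lower. EdgeR called 0 of them and DESeq2 7, where DESeq2 called 1.52% of all tested genes. An unadjusted p below 0.05 was found for 27 higher and 8 lower genes (7.92%, against 9.19% of all tested genes). Over all tested genes it was found for 953 higher and 1023 lower genes. The difference between these splits was not tested. By p the first 3 were ZNF687 (log2 fold change -0.41, SE 0.067), ZNF669 (0.43, SE 0.077) and ZNF367 (0.19, SE 0.044), each with an edgeR adjusted p of at least 0.252. DESeq2 called these 3, with adjusted p of 0.00015, 0.00040 and 0.041 in that order. ZNF7 had a log2 fold change below that of all 442, the lowest of which was -1.26 for ZNF573, a gene with 0.31 FPKM in NR3C2-OE and 0.59 FPKM in Control. Over all tested genes, 88 had a log2 fold change at or below that of ZNF7 (ZNF7 included), 19 of them with a mean of at least 1 FPKM in Control. These places follow from the choice of ZNF7 by this contrast and are no test.

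No gene of the machinery through which KRAB proteins act passed. All 26 listed genes were tested, 16 had positive and 10 negative log2 fold changes, from -0.13 to 0.27, and the median was 0.01. EdgeR called 0, as did DESeq2, against 0.0279% and 1.52% of all tested genes. An unadjusted p below 0.05 was found for 0, against 9.19% of all tested genes. TRIM28, the corepressor that binds the KRAB box, had 130 ± 5.87 FPKM in NR3C2-OE and 128 ± 6.44 FPKM in Control (SD, n = 3 each). The heterochromatin protein CBX1 had a log2 fold change of -0.09 (SE 0.039) and TASOR, a subunit of the HUSH silencing complex, one of 0.09 (SE 0.042).

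No partner of COMMD5 passed. Of 16 genes of the COMMD family and of the CCC and Retriever complexes, which return membrane proteins from endosomes, 5 leaned higher and 11 lower, and the median log2 fold change was -0.06. EdgeR and DESeq2 called 0, against 0.0279% and 1.52% of all tested genes. For 1 of the 16 (6.25%, against 9.19% of all tested genes) the unadjusted p was below 0.05. That gene was COMMD2, with 18.6 ± 0.10 FPKM in NR3C2-OE and 20.6 ± 0.41 FPKM in Control (log2 fold change -0.17, SE 0.044, edgeR adjusted p = 0.360). COMMD4 had a log2 fold change of 0.12 (SE 0.052). CCDC93, a coiled-coil subunit of the CCC complex, had 6.67, 17.3 and 7.19 FPKM in NR3C2-OE libraries 1, 2 and 3, against 16.5, 15.1 and 15.9 FPKM in Control libraries 1, 2 and 3. NR3C2-OE library 2, in which COMMD5 was high, had CCDC93 at the level of Control, and NR3C2-OE libraries 1 and 3 lay below all others (log2 fold change of the counts -0.83, SE 0.49, edgeR adjusted p = 0.671).

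The genes whose log2 CPM followed that of ZNF7 most closely over the 6 libraries, among 13004 other genes with a symbol and a mean of at least 1 FPKM, were CDCA3, the mitotic kinase NEK2, cyclin A2 (CCNA2), the endosomal GTPase RAB21 and the nucleosome-binding protein HMGN3. Their Pearson correlations with ZNF7 were 0.991 to 0.997. The 6 points fall in 2 groups that lie apart for ZNF7, and 367 genes had a correlation above 0.9. ZNF7 was chosen by its difference between the groups in these same counts. Genes that separate the groups in the same direction therefore come first, and nothing is read from their likeness to ZNF7. The log2 fold changes of the 5 were much smaller than that of ZNF7, from -0.37 for CDCA3 to -0.15 for RAB21. For COMMD5 the closest genes were FBXW4, ZFPL1, ZNF408, IRF1 and RCC2 (0.980 to 0.991), with log2 fold changes from 0.01 to 0.07, and 97 genes had a correlation above 0.9. These correlations rest largely on 1 library. COMMD5 had 24.6 CPM in NR3C2-OE library 2 and 11.7 to 15.3 CPM in the others, and these 5 genes were also highest there.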

How the data were processed

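The submitters' processing notes name cutadapt 1.2.1 for trimming. For the aligner, counting program, build and annotation, no name is given in the sources used here, and gene coordinates are left out. One table deposited by the authors holds an FPKM and an estimated count per gene and library. These expected counts are whole numbers, 77737375 to 132533971 per library. The value 4 occurred 8694 times, against 5772 for 3 and 5504 for 5, so 1 count need not be 1 fragment. Of 37202 genes, 36466 matched a symbol. The other 736 carry assembly names and stayed in the library sizes and tests.

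Counts were tested with edgeR 4.0.16 (quasi-likelihood, filterByExpr, TMM, group only) in R 4.3.3. Calls are at a two-sided Benjamini-Hochberg adjusted p below 0.05. Standard errors come from the F statistics, and 95% intervals use 4 residual degrees of freedom. FPKM was tested with limma 3.58.1 on log2(FPKM + 1). Alternatives were each library left out, a replicate block, DESeq2 1.42.0 size factors and its Wald test, limma-voom, other filters, a pseudocount of 0.1 and counts divided by 4. The edgeR steps were tested on simulated data.

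Members, lists and tests were chosen with earlier results of these data known. Genes outside the 9 were named by a rule (NR3C2, the 3 smallest p-values of a list, the 5 genes most like ZNF7 and COMMD5). KRT8, CDH1, CDH2, PAX2, AQP1, CUBN, LYZ, PECAM1, RPL8, C8orf33, ZNF573 and the genes that overlap members were named after their values or positions were seen. Apparent lengths and shared windows were added after seeing the table. Gene positions and transcripts came from GENCODE 29.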

Additional observations from a re-analysis of the deposited data

How the results depend on the processing

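The log2 fold change of ZNF7 stayed negative under all alternatives. It was -1.64 to -1.54 with 1 library left out, and -0.69 and -0.82 on log2(FPKM + 1) and log2(FPKM + 0.1). For ZNF7 and COMMD5 added it was -0.92 to -0.50 with 1 library left out, and -0.16 and -0.17 on these FPKM scales. By CPM, which is not scaled to length, ZNF7 was in place 6 of the 9 in NR3C2-OE and 1 in Control, which again restates its choice by this contrast. Of the other 8 genes, 0 were called under any alternative (adjusted p of 0.271 or more). ZNF707 ranged from 0.03 to 0.94 and ZNF517 from -0.65 to -0.27 with 1 library left out. COMMD5 ranged from -0.18 (without NR3C2-OE library 2) to 0.42 with 1 library left out. ZNF34 ranged from -0.30 to 0.18, was positive without Control library 3 (0.18) or NR3C2-OE library 2 (0.07), and was 0.044 and 0.10 on the FPKM scales. The number of genes called was 5 to 18 with 1 library left out, 11 on log2(FPKM + 0.1) and 328 with DESeq2. The causes were not tested.

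Over all tested genes the replicate numbers gave little sign of pairing. Deviations of same-numbered libraries from their group means had correlations of 0.03, 0.02 and 0.0038. Single genes could still differ. With the replicate number as a block, edgeR called 0 genes (1490 had an unadjusted p below 0.05), and the log2 fold change of ZNF7 was -1.58. Not every library correlated best with its own number. With counts divided by 4, the standard error of ZNF34 was 0.27, as with the counts undivided.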
